A study of Homo sapiens with 6 samples.

Results

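Core autophagy genes were followed after thapsigargin treatment in Daoy, an established cell line of human medulloblastoma. They were taken as a list of 37 genes that names each by its function and sets no threshold on measured values: the ULK complex, the PI3K complex, the WIPI, ATG2 and ATG9 proteins, the ATG conjugation enzymes, the ATG8 family, 3 cargo receptors and the TFEB family. All 37 had a probe set of their own among the 19775 genes so named on the array, and 36 of them were among the 12839 genes tested, for which 2 or more arrays had to read 100 or higher. The exception was TFEB, whose probe set lay between 11.1 and 96, and whose other probe set, at 9.3 to 177.1, passed 100 on 1 array.

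The study compared 3 groups of cultures, each measured on 2 arrays that the labels number replicate 1 and replicate 2: untreated cells, cells given 1 µM thapsigargin (Tg) for 3 h and cells given the same dose for 8 h. Thapsigargin blocks the SERCA pumps that load calcium into the endoplasmic reticulum (ER), and the loss of ER calcium sets off the unfolded protein response (UPR). All groups are the same line, so the results describe 1 tumour cell line in culture. The study describes 2 independent experiments, the labels do not name the culture behind each array, and the p-values therefore rest on array-to-array spread.

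Macroautophagy encloses cytoplasm in a double membrane and delivers it to the lysosome. The ULK kinase complex starts the process, and the class III PI3K complex then makes the lipid PI3P on the membrane, to which WIPI proteins bind. ATG2 and ATG9 supply lipid to the growing membrane, and the conjugation enzymes attach ATG8 family proteins to it. Cargo receptors such as SQSTM1 bind ATG8 proteins and their cargo, and TFEB, TFE3 and MITF are transcription factors of lysosomal and autophagy genes. Much of the control of the pathway is by phosphorylation, lipids and membrane traffic, which RNA levels do not show, and no autophagic flux was measured here.

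The values are MAS5 signals, linear intensities that share a trimmed mean of 500 across arrays, and differences are given as log2 fold changes. Median signals were 84.8 to 103 for replicate 1 and 69.7 to 75.3 for replicate 2. Of 10 UPR genes used to check the treatment, 1 rose at 3 h and 4 rose at 8 h in limma. In a second fit, called blocked, the replicate number entered as a block, and the counts were 6 and 8. DDIT3, which encodes the stress factor CHOP, reached a log2 fold change of 4.41 at 8 h. All 10 UPR genes had positive log2 fold changes at both times, with a median of 1.77 at 3 h and 1.96 at 8 h. The largest of them at 3 h was 4.38. Of the neural and glial list, VIM read 31015.6 to 52822.4, TUBB3 10182.5 to 20648.3 and NCAM1 815 to 1263. The glial and synaptic markers GFAP, S100B and SYP did not exceed 28.1 on any array. Of the cerebellar markers, ZIC1 and ZIC2 read 1924 to 3427.2, and ATOH1 and BARHL1 stayed under 100. None of the 4 immune markers with a probe set reached the minimum for testing, 3 of 5 endothelial markers did, and of the epithelial list KRT8 and KRT18 read 4916.4 to 30279.2 while EPCAM read 169.2 to 301.7 and CDH1 63 to 118.6. At 8 h the log2 fold change was negative in 8 of 9 tested neural and glial markers (median -0.48) and in 7 of 8 medulloblastoma and cerebellar markers (median -0.25). Over all genes 39.9% were positive at 8 h, with a median of -0.09. None of these markers passed in limma. In the blocked fit OLIG2 rose and SOX2, SOX9 and GLI2 fell, where 4.76% of all genes rose and 3.79% fell. The part of these markers in the autophagy results was not tested. In RNA of whole cultures, fewer cells of a type and less RNA per cell cannot be told apart.

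The gene starts were searched for short motifs in RefSeq promoters (GRCh38.p14), each running from 250 bases before to 50 bases after a start. They were found for 33 of the 37 genes, with 45 promoters among 35116. The stretch before the start of WIPI1, the gene with the largest rise of the 36, is shown first, with GC boxes (GGGCGG) and CCAAT boxes on either strand in capitals. It lies on the minus strand at chr17:68457497-68457746 and holds 9 GC boxes and 2 CCAAT boxes. The other 2 stretches show the single members whose promoter held a CLEAR core or a C/EBP-ATF response element, in capitals, at chr3:112561940-112561969 and chrX:49079875-49079904, both minus strand.
WIPI1: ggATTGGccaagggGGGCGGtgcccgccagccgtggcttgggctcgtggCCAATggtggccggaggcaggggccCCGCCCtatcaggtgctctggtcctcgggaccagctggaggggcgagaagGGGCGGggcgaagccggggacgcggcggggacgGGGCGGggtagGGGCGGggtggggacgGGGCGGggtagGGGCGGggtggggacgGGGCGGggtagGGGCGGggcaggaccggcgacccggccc
ATG3: agagtctagtgTCACGTGAggccccggtgg
WDR45: gaagtagggccTGATGTAAacacccgagcc

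The CLEAR core TCACGTGA, the palindrome known as a binding sequence of TFEB, was found in the promoter of ATG3 only, and in 0.98% of all promoters. The E-box CACGTG, which every CLEAR core contains, was found in ATG3 and ATG14, and in 7.26% of all promoters. The C/EBP-ATF response element TGATGNAA, known as a site of ATF4 with CHOP or C/EBP factors, was found in WDR45 only, and in 3.62% of all. The ER stress element (CCAAT, 9 bases, CCACG) and the sequence TGACGTGG, known from XBP1 and ATF6 binding, were found in no member and in 0.0769% and 0.729% of all promoters. GC boxes stood in 31 of the 45 member promoters (68.9%) and in 45% of all, and CCAAT boxes in 14 of the 45 (31.1%) and in 34.6% of all. These last 2 motifs were chosen after the sequence had been seen. All motifs were read on both strands, and a match or its absence describes the letters of this window alone.

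At 3 h none of the 36 genes passed the test in either direction. In limma 0 were higher and 0 were lower, against 0.0701% and 0% of all genes tested. None reached an unadjusted p under 0.05, where 3.26% of all genes were higher and 1.24% lower. With the replicate number as a block, the counts remained 0 and 0 against 1.17% and 0.0779% of all genes, and 3 members were higher and 0 lower at an unadjusted p under 0.05, where 7.27% and 5.82% of all genes were. Log2 fold changes were positive in 18 and negative in 18, with a median of -0.01 beside -0.02 over all genes, and they ran from -0.50 for ATG7 to 0.57 for WIPI1. Both treated arrays lay above both untreated arrays in 6 of the 36 and below them in 2, while 14% and 16.5% of all genes did so.

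At 8 h WIPI1 rose and no other member passed in limma, where 1 gene was higher and 0 were lower against 0.646% and 0.21% of all genes. An unadjusted p under 0.05 was reached by 3 members, all higher, namely WIPI1, ATG13 and ATG101, while 5.44% of all genes were higher and 6.64% lower at that limit. With the replicate number as a block, 4 members rose, against 4.76% of all genes: WIPI1, ATG13, ATG101 and MAP1LC3B. None fell in the blocked fit, in which 3.79% of all genes fell. Positive and negative log2 fold changes numbered 17 and 19, with a median of -0.04 beside -0.09 over all genes. Both treated arrays were above both untreated arrays in 7 members and below them in 7, and in 15.3% and 26.7% of all genes.

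**Figure D1:**
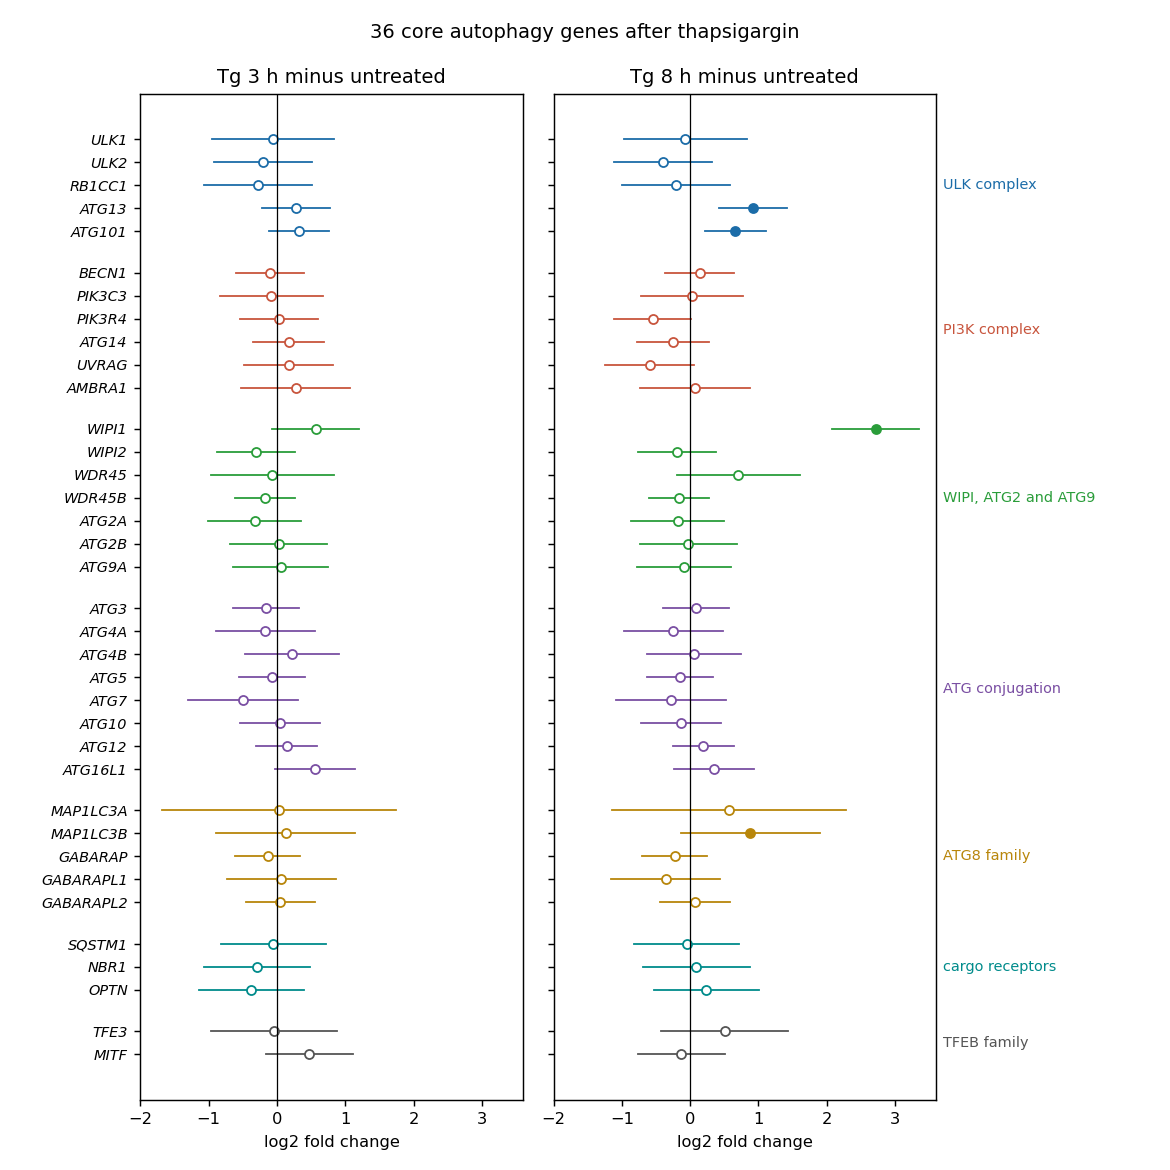
Log2 fold change of the 36 tested members at 3 h (left) and 8 h (right) against untreated cells, ordered by step of the pathway. Points are limma estimates from 2 arrays a group, lines are 95% intervals of the fit without the block, and filled points had an adjusted p under 0.05 with the replicate number as a block. WIPI1 stands at 2.72 at 8 h, and ATG13, ATG101 and MAP1LC3B are the other filled points.

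The WIPI, ATG2 and ATG9 group held the largest change. WIPI1, a PI3P-binding propeller protein, had signals of 571.3 and 864.8 in untreated cells, 873.8 and 1238.6 at 3 h and 4354.7 and 4920.3 at 8 h. Both 3 h arrays were slightly above both untreated arrays, and both 8 h arrays were far above all others. The rise at 8 h was 6.59-fold, with a 95% interval of 4.24 to 10.2 and a limma adjusted p of 0.0104 (blocked 2.4e-05). Without the first or the second 8 h array it no longer passed in limma (adjusted p 0.0784 and 0.0939), and in the blocked fit it passed with each of the 6 arrays left out. Each such fit leaves a group with 1 array, which is assumed to vary like the other groups. Without limma's intensity trend it did not pass (limma adjusted p 0.177, blocked 0.174), and neither did any other of the 12839 genes in these 2 fits. By size of the log2 fold change WIPI1 was number 52 of the 12839 genes, counted from the largest rise. At 3 h its log2 fold change was 0.57 (95% interval -0.07 to 1.20), which did not pass with or without the block (limma adjusted p 0.9995 and 0.184). A second probe set of WIPI1 read 594.3 and 700.5 in untreated cells and 3218 and 3831.3 at 8 h, with a log2 fold change of 2.44 and a limma adjusted p of 0.00803.

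None of the other 6 members of this group passed. WDR45, another PI3P-binding propeller protein, had signals of 645.7 and 973.7 in untreated cells, 499.4 and 1141.1 at 3 h and 1274.7 and 1310.2 at 8 h. The 8 h arrays lay above the untreated arrays, while the 3 h arrays lay on both sides of them. Its log2 fold change at 8 h was 0.70 (95% interval -0.19 to 1.60, limma adjusted p 0.618, blocked 0.135). On a second probe set of WDR45 the groups overlapped, with 287.4 and 477.9 in untreated cells and 348.9 and 601.8 at 8 h. The log2 fold change there was 0.31. The related WIPI2 and WDR45B, the lipid transfer proteins ATG2A and ATG2B and the scramblase ATG9A had log2 fold changes at 8 h between -0.19 and -0.03. The 7 members had a median of -0.07 at 3 h and of -0.09 at 8 h, far below the value of WIPI1.

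In the ULK complex, ATG13 and ATG101 rose at 8 h in the blocked fit. ATG13, the subunit that bridges the ULK kinases and RB1CC1, had signals of 588.8 and 733.9 in untreated cells, 799.6 and 799.7 at 3 h and 1247.7 and 1249.9 at 8 h. The arrays of the 3 groups did not overlap, and those of each treated group were almost equal. The log2 fold change at 8 h was 0.93 (95% interval 0.43 to 1.42), which is 1.9-fold, with a limma adjusted p of 0.144 without the block and 0.0119 with it. The other 2 tested probe sets of ATG13 had log2 fold changes of 0.43 and 0.86, with blocked limma adjusted p of 0.281 and 0.0452. The blocked call was lost without untreated replicate 1 (adjusted p 0.17), without Tg 8 h replicate 1 (0.0909) and without the intensity trend (0.203).

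ATG101, which binds and stabilises ATG13, had signals of 2659.2 and 2531.2 in untreated cells, 3430.1 and 3046 at 3 h and 4299.2 and 3932.7 at 8 h. Here too the 3 groups did not overlap, and the order was the same on both replicates. The log2 fold change was 0.32 at 3 h (95% interval -0.12 to 0.76) and 0.66 at 8 h (0.22 to 1.10), or 1.58-fold at 8 h. The limma adjusted p at 8 h was 0.247, and 0.0111 with the block. The blocked call was lost when untreated replicate 1 or Tg 8 h replicate 1 was left out, at log2 fold changes of 0.625 and 0.661. With no intensity trend the blocked limma adjusted p was 0.222, and no gene passed in that fit. The kinases ULK1 and ULK2 and the scaffold RB1CC1 had log2 fold changes at 8 h of -0.07, -0.40 and -0.21, none of which passed. The complex as a whole had a median of -0.06 at 3 h and -0.07 at 8 h, with the members split between 2 that rose with the block and 3 below 0. This split holds for the probe sets read. Other tested probe sets were above 0 at 8 h for RB1CC1 (0.38) and, on dim signals, for ULK2 (0.59 and 0.31).

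The ATG8 family is what the conjugation enzymes attach to membranes, and of its 5 members MAP1LC3B alone passed. MAP1LC3B, the source of the widely used marker LC3B, had signals of 2340.3 and 4455.3 in untreated cells, 2375.6 and 5246.9 at 3 h and 4793.2 and 7388.7 at 8 h. Replicate 2 was above replicate 1 in all 3 groups, by 1.86-fold on average, and the untreated replicate 2 array came close to the 8 h replicate 1 array. The log2 fold change at 8 h was 0.88, with a 95% interval of -0.14 to 1.90 and a limma adjusted p of 0.573. With the block the interval was 0.56 to 1.20 and the limma adjusted p 0.0064. At 3 h the log2 fold change was 0.13 (95% interval -0.89 to 1.15). A second probe set gave 0.93 at 8 h, with a blocked limma adjusted p of 0.0102. Leaving out untreated replicate 1 or Tg 8 h replicate 1 lost the blocked call at 8 h, at log2 fold changes of 0.86 and 0.68. Dropping the intensity trend moved the blocked limma adjusted p to 0.224, and no gene passed in that fit.

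**Figure D2:**
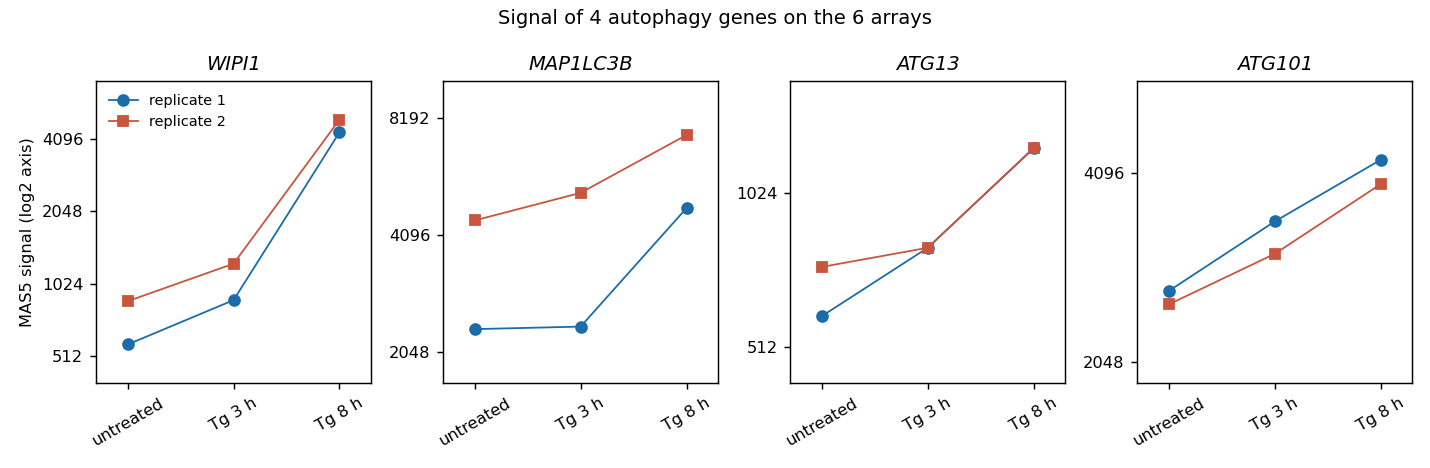
MAS5 signal (log2 axis) of the 4 members that passed at 8 h in the blocked fit, on the 2 untreated, 2 Tg 3 h and 2 Tg 8 h arrays. Circles are replicate 1 and squares replicate 2, and lines join arrays of the same number. WIPI1 reached 4354.7 and 4920.3 at 8 h, and MAP1LC3B was higher on replicate 2 in every group.

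GABARAPL1, another ATG8 protein, had signals of 246.8 and 286.1 in untreated cells, 349.6 and 220.1 at 3 h and 204.3 and 210.4 at 8 h. The 8 h arrays were below the untreated arrays and the 3 h arrays were not, with a log2 fold change of -0.36 at 8 h (95% interval -1.15 to 0.44). A second probe set went the other way, with 220.7 and 228 in untreated cells, 106.9 and 203 at 3 h and 233.5 and 283.5 at 8 h, a log2 fold change of 0.20 at 8 h. A probe set shared by GABARAPL1 and GABARAPL3 was left out. GABARAP, with 10907.8 and 9413.2 in untreated cells, and GABARAPL2 had log2 fold changes at 8 h of -0.23 and 0.07. MAP1LC3A was dim, at 47.2 to 154.9, and its 95% interval at 8 h ran from -1.15 to 2.29. The family had a median of 0.05 at 3 h and 0.07 at 8 h.

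In the PI3K complex 0 of 6 members passed at any time, with or without the block. PIK3R4, the regulatory subunit that carries the lipid kinase PIK3C3, had signals of 1446.7 and 1397.6 in untreated cells, 1311.7 and 1598.9 at 3 h and 806.4 and 1175.5 at 8 h. Both 8 h arrays were the lowest of the 6, and the log2 fold change at 8 h was -0.55 (95% interval -1.11 to 0.02, limma adjusted p 0.519, blocked 0.105). UVRAG, the subunit of the complex that acts on endosomes and maturing autophagosomes, had signals of 828.2 and 653.5, then 870.1 and 788, then 390.4 and 611.3. Its 8 h arrays were again the lowest, by much more on replicate 1 than on replicate 2, with a log2 fold change of -0.59 (95% interval -1.24 to 0.06, limma adjusted p 0.547, blocked 0.207).

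BECN1, PIK3C3, ATG14 and AMBRA1 had log2 fold changes at 8 h between -0.25 and 0.14. BECN1 is the core subunit shared by the PI3K complexes, ATG14 directs the complex to the ER and AMBRA1 is a BECN1 partner. The 6 members had a median of 0.10 at 3 h and of -0.11 at 8 h. Against 3 h, the 8 h arrays had a median of -0.31, and both were below both 3 h arrays in 4 of the 6 (PIK3R4, ATG14, UVRAG and AMBRA1), none of which passed. Over the 36 genes this held in 7, and over all genes in 22.6%, while both were above in 6 of the 36 and in 14% of all genes.

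Of the 8 conjugation genes none passed. ATG7, the E1-like enzyme that activates ATG12 and ATG8 proteins, had signals of 515.4 and 561.6 in untreated cells, 308.4 and 470.1 at 3 h and 332 and 592 at 8 h. The 3 h arrays lay below the untreated arrays and the 8 h arrays on both sides of them, with log2 fold changes of -0.50 (95% interval -1.31 to 0.31) and -0.28 (-1.09 to 0.53). ATG16L1, which places the ATG12-ATG5 conjugate at the membrane, had signals of 300.4 and 302.9, then 476.1 and 413.6, then 395.6 and 373.6. All 4 treated arrays were above both untreated arrays, and the log2 fold change was 0.56 at 3 h (95% interval -0.03 to 1.15) and 0.35 at 8 h (-0.24 to 0.94). The E2-like enzymes ATG3 and ATG10, the proteases ATG4A and ATG4B, and ATG5 and ATG12 had log2 fold changes at 8 h between -0.25 and 0.19. ATG12, the ubiquitin-like protein joined to ATG5, was also above the untreated arrays on all 4 treated arrays, with signals of 2421.1 and 2461.7, then 2477 and 2936.3, then 2703.6 and 2879.

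The 3 cargo receptors did not pass. SQSTM1, also called p62, read 5490 and 7387.3 in untreated cells, 4815 and 7815.3 at 3 h and 4764.4 and 7927.7 at 8 h. The signal followed the replicate number, replicate 2 being the higher in each group, and the log2 fold change at 8 h was -0.05 (95% interval -0.82 to 0.72). NBR1, a receptor related to SQSTM1, read 670.1 and 1078.7, then 546.7 and 882.7, then 774.1 and 1060.2, a log2 fold change of 0.09 at 8 h (95% interval -0.69 to 0.87).

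OPTN, a receptor for ubiquitinated cargo such as damaged mitochondria, read 681 and 1299.1, then 647.8 and 809.2, then 960.6 and 1278.9. Its 8 h arrays lay within the untreated range, with a log2 fold change of 0.24 (95% interval -0.53 to 1.01). The median of the 3 receptors was -0.29 at 3 h and 0.09 at 8 h. Other probe sets differed, and none passed. A second probe set gave 0.46 at 3 h and 0.42 at 8 h for SQSTM1, 0.29 and 0.04 for OPTN and -0.69 and 0.09 for NBR1. The remaining tested probe sets of SQSTM1 gave -0.14 and -0.71 at 3 h and 0.04 and -0.06 at 8 h.

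Of the TFEB family, TFE3 and MITF could be tested. TFE3 read 722.9 and 1417.6 in untreated cells, 845.1 and 1141.2 at 3 h and 1046.1 and 1976.4 at 8 h. The groups overlapped, and the log2 fold change at 8 h was 0.51 (95% interval -0.42 to 1.44, limma adjusted p 0.767, blocked 0.138). On a second probe set of TFE3, with 229.7 and 433.1 in untreated cells and 486.3 and 585.2 at 8 h, these arrays did not overlap. Its log2 fold change was 0.76 (limma adjusted p 0.522, blocked 0.107). MITF read 674.8 and 760.9, then 1223.5 and 808.6, then 570.6 and 755.2. Its 3 h arrays were both above the untreated arrays, far more so on replicate 1. The log2 fold change was 0.47 at 3 h (95% interval -0.17 to 1.11) and -0.13 at 8 h (-0.77 to 0.51). On a second probe set of MITF it was 0.06 at 3 h and -0.47 at 8 h.

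A p that missed the threshold left a range of sizes open. At 8 h the 95% interval lay within 2-fold in either direction for 23 of the 36 genes in limma and for 29 in the blocked fit, and at 3 h for 25 and 32. The median half-width of the interval was 0.68 on the log2 scale without the block and 0.38 with it. Of the 36, 27 had a log2 fold change at 8 h closer to 0 than 0.5, and 34 at 3 h.

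Between 3 h and 8 h, 0 members were higher and 0 lower in limma, as were 0% and 0% of all genes. At an unadjusted p under 0.05 there were 2 higher (WIPI1 and ATG13) and 2 lower (PIK3R4 and UVRAG), and over all genes 2.77% were higher and 5.05% lower. With the block, WIPI1 and MAP1LC3B rose, against 1.53% of all genes, and 0 members fell against 1.72%. WIPI1 was 4.45-fold higher at 8 h than at 3 h, with a 95% interval of 2.87 to 6.91 and a limma adjusted p of 0.223 without the block and 0.000663 with it. MAP1LC3B had a log2 difference of 0.75 between these times (blocked 95% interval 0.43 to 1.08, blocked limma adjusted p 0.0294), which did not pass without Tg 3 h replicate 1 (0.269) or Tg 8 h replicate 1 (0.305). In the local pooled error test that the study's methods name, WIPI1 was again the 1 member that passed at 8 h, against 1.14% of all genes, and the 1 that passed between 3 h and 8 h, against 0.179%.

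Many of these genes differed between the replicate numbers by more than with treatment. Replicate 2 was above replicate 1 in all 3 groups in 19 of the 36, which is 52.8% beside 27.8% of all genes. The reverse held in 3, or 8.33% beside 24.3%. The difference between the replicate numbers was larger than the log2 fold change at 8 h in 21 of the 36, which is 58.3% against 49% of all genes. Its median size was 0.28 on the log2 scale, beside a median size of 0.20 for the change at 8 h, and over all genes both were 0.29. What sets the replicate numbers apart was not tested.

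**Figure D3:**
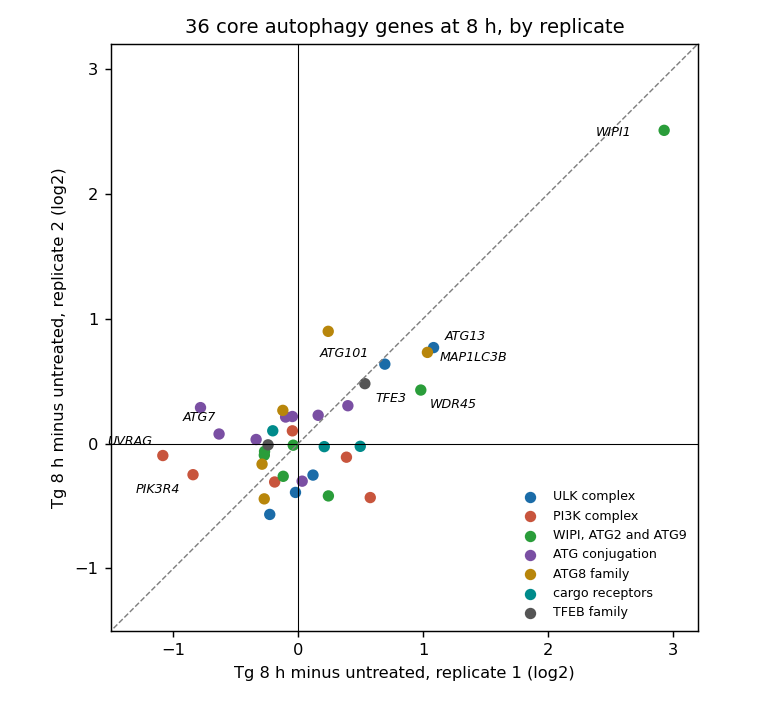
Log2 difference between the Tg 8 h and the untreated array of the same number, for replicate 1 (x axis) and replicate 2 (y axis), for the 36 tested members coloured by step; the dashed line marks equal differences. WIPI1 lies at 2.93 and 2.51, ATG13 at 1.08 and 0.77 and MAP1LC3B at 1.03 and 0.73, while UVRAG lies at -1.08 on replicate 1 and -0.10 on replicate 2.

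Genes with several probe sets did not always read the same. The 36 genes had 73 tested probe sets. Several probe sets were tested for 24 genes, in 9 of which the log2 fold changes at 8 h had both signs, and 1 was tested for the other 12. ULK2, for example, ran from -0.40 to 0.59 over its 3 probe sets. The 0.59 came from a dim probe set with a mean signal of 126.5, while the one that stood for the gene averaged 347.3. In PIK3C3 the opposing value of -1.39 came from a probe set averaging 75.1. Some of the opposing signs thus rest on signals near the minimum for testing, and others do not. In RB1CC1, probe sets averaging 3574.3 and 1151.9 had log2 fold changes at 8 h of -0.21 and 0.38. In SQSTM1, those averaging 6366.6 and 412.8 had -0.05 and 0.42.

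Other genes of the pathway were counted from lists of neighbouring functions. For comparison with each list at 8 h, 0.646% of all genes were higher and 0.21% lower in limma. In the blocked fit 4.76% were higher and 3.79% lower, and the median over all genes was -0.09. Of 19 other early autophagy factors tested, 1 rose at 8 h in limma and 2 in the blocked fit, with a median log2 fold change of 0.25. The limma count was 0 when any array but untreated replicate 2 was left out. TMEM41B, an ER scramblase needed for autophagosome formation, read 1052.8 and 1664.2 in untreated cells, 2593.9 and 2878 at 3 h and 4692.2 and 5560.4 at 8 h. The 3 groups did not overlap, and the log2 fold change at 8 h was 1.95 (limma adjusted p 0.0222). At 3 h it was 1.05, which passed with the block (limma adjusted p 0.516, blocked 0.0114). NRBF2, a subunit of the ATG14-containing PI3K complex, read 930.8 and 1164.8, then 1135.9 and 1810.9, then 2572.4 and 2659.9. Its 8 h arrays stood above all others, with a log2 fold change of 1.33 (limma adjusted p 0.0886, blocked 0.00187). It was thus a PI3K complex subunit outside the list that rose with the block, while the 6 listed subunits did not pass.

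Of 17 genes of autophagosome to lysosome fusion, such as STX17 and RAB7A, 0 passed at 8 h in either fit, and their median was -0.10. Of 25 lysosomal hydrolases, membrane proteins and V-ATPase subunits tested, 0 passed in limma, and 0 rose and 2 fell with the block, with a median of -0.05. These 2 were the heparan sulfate sulfatase SGSH, with a log2 fold change of -1.64 (limma adjusted p 0.0955, blocked 0.0117), and the protective protein cathepsin A, CTSA, with -0.67 (limma adjusted p 0.433, blocked 0.0238). In the blocked fit 0 lysosomal genes fell when either untreated array was left out.

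Of 28 genes of mTORC1, AMPK and nutrient sensing, 0 passed in limma, and 3 rose and 2 fell with the block, with a median of -0.06. The largest were TRIB3, a pseudokinase that binds AKT, at 2.83 (limma adjusted p 0.289, blocked 0.0233), SESN2, a leucine sensor upstream of mTORC1, at 2.69 (limma adjusted p 0.330, blocked 0.0395), and the related SESN3, at -1.26 (blocked limma adjusted p 0.0212). TRIB3 read 839.9 and 7879.1 on the 2 untreated arrays and SESN2 192 and 2093.3, so their untreated levels were far apart. PRKAB2, an AMPK subunit, rose and RRAGD, a Rag GTPase, fell in the blocked fit, at 0.64 and -0.71. When untreated replicate 1 was left out, 1 gene of this list rose and 0 fell with the block.

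**Figure D4:**
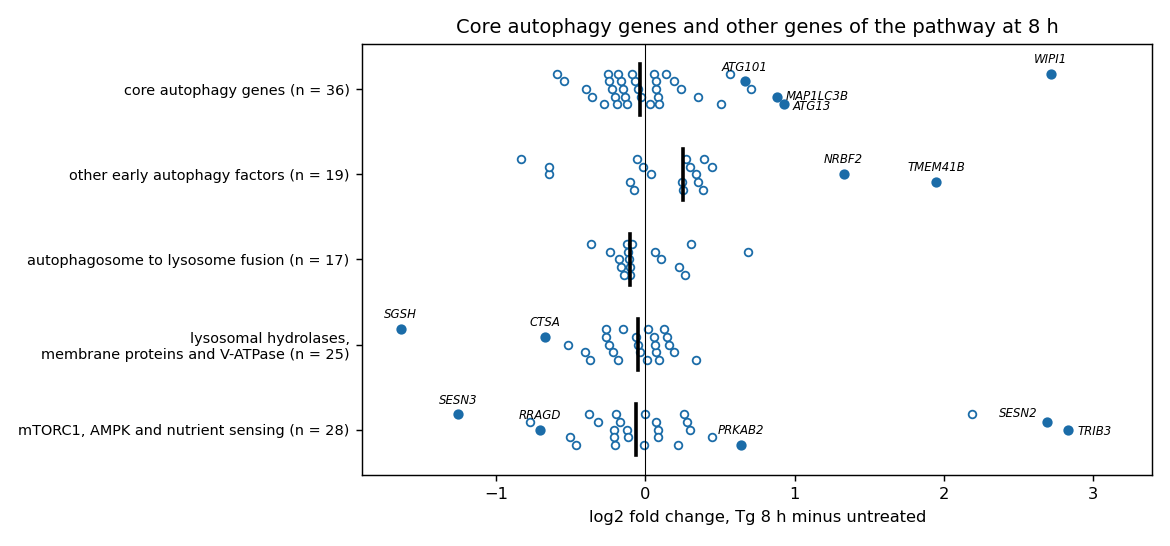
Log2 fold change at 8 h against untreated cells of the 36 core autophagy genes and of the tested genes of 4 neighbouring lists, 1 point a gene. Filled points had an adjusted p under 0.05 with the replicate number as a block, open points did not, and black bars are list medians, which lie between -0.10 and 0.25.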

How the data were processed

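RNA of Daoy cells was hybridised to Affymetrix whole-genome arrays, 2 for each of 3 groups. The authors deposited MAS5 signal intensities per probe set, scaled to a trimmed mean of 500 (2% trimmed), so values are relative to each array's total. Signals were log2-transformed. Of 54675 probe sets, 41097 carried 1 symbol and 27616 were tested (signal of at least 100 on at least 2 arrays). A gene was read from its brightest probe set. limma 3.58.1 in R 4.3.3 (lmFit, eBayes with an intensity trend, all 6 arrays, two-sided) was used with Benjamini-Hochberg adjustment over all probe sets tested and a threshold of 0.05. The fits were also run on simulated signals with a replicate difference equal in all groups, and no result here rests on that run.

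Deviations from the group means were shared by arrays of the same number (correlations of 0.259 to 0.323 across tested probe sets and 0.657 to 0.7 across those averaging 500 or more). The labels give the numbers, the study mentions 2 independent experiments, and that a number marks an experiment is not stated, so both fits are given. The members and lists were chosen with earlier results of these data known. The 14 members described in full passed in either fit or, up to 2 per step, had the largest change at 8 h at a signal of at least 200. Up to 3 genes that passed were named from each other list, and PRKAB2 and RRAGD were added after their values were seen. Alternatives were the local pooled error test, no trend, quantile and median scaling, other filters and floors, probe set means, the 4 arrays compared and each array left out.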

Additional observations from a re-analysis of the deposited data

Results flagged for a closer look

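The response of 2 genes differed between the times when the replicate number was fitted as a block. The 8 h value of WIPI1 exceeded its 3 h value by 2.15 on the log2 scale (blocked limma adjusted p 0.000663), higher on both replicates, and that of MAP1LC3B by 0.75 (0.0294), also higher on both. Without the block neither passed (limma adjusted p 0.223 and 0.846).

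ATG14, UVRAG and MITF were above the untreated array of the same number at 3 h on both replicates, and below it at 8 h on both. Their log2 differences between 8 h and 3 h were -0.42, -0.76 and -0.60, and none passed (limma adjusted p 0.831, 0.675 and 0.793). For MITF the 8 h difference from untreated on replicate 2 was only -0.01. Its second tested probe set did not have the pattern, with 569.2 untreated and 511.2 at 3 h on replicate 1. The share of all genes with this pattern was not counted.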

How the results depend on the processing

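Counts of core autophagy genes that passed are given here. At 8 h 1 was higher, and with the replicate block 4 were. The count was 0 without limma's intensity trend, with or without the block, as it was over all 12839 genes. With single arrays left out, WIPI1 did not pass without either Tg 8 h array, where few or no genes of the whole array passed. Its log2 fold change at 8 h ran from 2.42 to 3.02 in the fits with an array left out. A group left with 1 array was taken to vary like the others. Between 3 h and 8 h the count was 0, 2 with the replicate block and 1 in the local pooled error test. Settings added after seeing the data put the replicate block together with another choice. With an array left out, the blocked count of higher genes at 8 h was 1 without untreated replicate 1 or Tg 8 h replicate 1, 5 without Tg 8 h replicate 2 (WDR45 added) and 4 otherwise, and between 3 h and 8 h it was 1 without Tg 3 h or Tg 8 h replicate 1, 3 without Tg 8 h replicate 2 and 2 otherwise. WDR45 passed as higher and UVRAG as lower only without Tg 8 h replicate 2, in both comparisons. The block with quantile normalization gave 4 higher members at 8 h and 2 between 3 h and 8 h, where 633 and 207 of 12839 genes were higher. With the mean of a gene's probe sets it gave 4 and 1, where 452 and 117 of 12884 genes were higher. Of 753 values under the settings planned at the start, 744 kept their side of the threshold, 3 lost a call and 6 gained one. The only call of the main fit was WIPI1 at 8 h, so most of the 744 were uncalled values that stayed uncalled. The 3 lost calls were all of WIPI1 at 8 h. No called value changed sign, while 38 uncalled values did. With 2 arrays a group, dim genes such as MAP1LC3A allowed wide intervals, and precision is limited by the number of arrays.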
